A study of Mus musculus with 35 samples.

Results

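The 33 genes described here encode enzymes of cholesterol and fatty acid synthesis, the SREBP system that controls them, and 2 proteins that move or store cholesterol. They were the rows of the deposited lung table whose symbol is on a list of 33 names, out of 22211 genes in all, and all 33 passed a filter that kept 16786 genes. The table gives RNA of left lung lobes from 35 mice, all male and aged 7 to 9 weeks, at ZT16 or ZT4 (hours after lights on, ZT being zeitgeber time). DT mice received diphtheria toxin at 10 ng per g body weight and carried MRP8-Cre and iDTR-flox, with 3 lungs at ZT16 and 4 at ZT4, all from an April 2018 batch. In these mice Cre, driven by a promoter active in myeloid cells, switches on a toxin receptor. Anti-Ly6G mice were wild type and received the neutrophil antibody 1A8 at 3 µg per g, with 7 lungs at each time. Control mice were wild type and received control IgG at 3 µg per g, with 7 lungs at each time. Each wild-type group held 3 lungs from July 2017 and 4 from September 2017. All agents were given under the skin on 2 consecutive days, and the lobes were perfused and frozen the next day. All lobes were taken in the morning, and mice at ZT16 lived in cabinets with inverted light, so time of day and housing cannot be told apart. DT, genotype and batch cannot be told apart either, since April 2018 held no other mice. Each library was taken as 1 mouse, as the labels number mice within groups, and p-values measure the spread between these libraries.

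As background, cholesterol is built from acetyl-CoA through mevalonate and farnesyl diphosphate to squalene, and from squalene through lanosterol and a chain of sterol intermediates. The transcription factors SREBP-1 and SREBP-2, encoded by Srebf1 and Srebf2, are held in the endoplasmic reticulum with Scap while Insig proteins bind it, and they switch on these enzymes when membrane sterol is low. Fatty acids are made from citrate-derived acetyl-CoA by Acly, Acaca and Fasn, lengthened by Elovl enzymes and desaturated by Scd enzymes. In the lung, alveolar type 2 cells use these pathways to make the lipid of surfactant.

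Promoter sequence is shown for 4 genes. Elovl1 and Soat1 were lower at ZT16 in all 3 treatments, Pmvk had the largest increase, and Hmgcs1 was the only matched member with the letters TCACNCCAC, a form of the sterol response element that SREBPs bind. RefSeq windows on GRCm38.p6 held 250 bases before and 50 bases after a gene start, and 27 of the 33 genes had at least 1. The windows lie at chr4:118427843-118428142, plus strand (Elovl1), chr1:156474279-156474578, minus strand (Soat1), chr3:89454291-89454590, plus strand (Pmvk) and chr13:119690101-119690400, plus strand (Hmgcs1). Each is printed 5′ to 3′ on the strand of its gene, and capitals mark every match, on either strand, to TCACNCCAC, to CCAAT (the NF-Y box), to CACGTG (an E-box) or to GGGCGG (a GC box).
Elovl1: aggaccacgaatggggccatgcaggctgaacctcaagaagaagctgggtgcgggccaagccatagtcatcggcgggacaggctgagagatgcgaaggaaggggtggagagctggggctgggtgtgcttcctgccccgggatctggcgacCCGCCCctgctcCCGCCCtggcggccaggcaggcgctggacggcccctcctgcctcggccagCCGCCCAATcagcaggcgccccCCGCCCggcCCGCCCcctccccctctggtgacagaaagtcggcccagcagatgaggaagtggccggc
Soat1: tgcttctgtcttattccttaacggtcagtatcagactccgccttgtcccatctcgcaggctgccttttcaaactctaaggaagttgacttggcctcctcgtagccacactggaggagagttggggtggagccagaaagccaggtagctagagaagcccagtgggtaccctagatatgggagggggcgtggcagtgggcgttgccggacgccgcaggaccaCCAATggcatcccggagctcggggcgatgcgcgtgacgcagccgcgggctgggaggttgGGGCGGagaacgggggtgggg
Pmvk: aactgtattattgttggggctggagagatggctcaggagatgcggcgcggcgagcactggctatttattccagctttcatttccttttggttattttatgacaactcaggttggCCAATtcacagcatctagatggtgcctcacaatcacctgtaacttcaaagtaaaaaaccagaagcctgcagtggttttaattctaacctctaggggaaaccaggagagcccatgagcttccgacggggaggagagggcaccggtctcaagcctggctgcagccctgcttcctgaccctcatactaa
Hmgcs1: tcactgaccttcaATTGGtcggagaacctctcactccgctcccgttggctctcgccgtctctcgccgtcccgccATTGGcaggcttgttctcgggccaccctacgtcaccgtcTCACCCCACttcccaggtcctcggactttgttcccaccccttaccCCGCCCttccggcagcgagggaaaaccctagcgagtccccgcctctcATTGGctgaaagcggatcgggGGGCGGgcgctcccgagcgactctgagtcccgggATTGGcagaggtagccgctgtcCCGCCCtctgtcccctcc
In the Elovl1 window CCAAT overlaps a GC box on the other strand. Elovl1 and Pmvk each had a second window that is not shown. The Hmgcs1 window held TCACNCCAC once, at position -137 from the start, with 4 CCAAT and 3 GGGCGG matches. CCAAT stood in at least 1 window of 23 of the 27 genes (85.2%), against 41.1% of all 27025 genes with a window and 42.3% of the 17492 protein-coding ones. GGGCGG stood in 22 of 27 (81.5%), against 38.2% of all genes and 49.2% of protein-coding ones. CACGTG stood in 6 of 27 (22.2%), against 8.09% of all genes and 8.91% of protein-coding ones. TCACNCCAC stood in 1 of 27 (3.7%), against 1.44% of all genes and 1.41% of protein-coding ones. These are counts of letters, with no test.

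All values are the authors' normalised expression values, whose read depth is unknown, and levels were not compared between genes. They summed to 962600 to 1034000 per library, and 15351 to 15802 genes per library reached a value of 1. Summed markers of lung identity, such as surfactant and club cell genes, lay between 43214 and 61513 in every library, but they did not overlap between times in DT mice (56448 to 61513 in ZT16 DT lungs, against 43214 to 52691 in ZT4 DT lungs). The summed value of 10 neutrophil markers was 25.0 to 40.8 in ZT16 anti-Ly6G lungs, against 29.5 to 96.0 in ZT16 control lungs. It was 30.1 to 64.6 in ZT4 anti-Ly6G lungs, against 52.4 to 809 in ZT4 control lungs (up to 210.6 without ZT4_control Sep#2), and these groups overlapped at both times. None of the 10 passed the test between anti-Ly6G and control mice. In DT lungs the sum was 31.9 to 65.0 at ZT16 and 39.8 to 46.1 at ZT4. A library is named here by its group, its batch and its place in the table. In ZT4_control Sep#2 the neutrophil markers summed to 809, against a group median of 69.6. In ZT4_control Sep#3 a sum of 12 adipocyte markers was 535, against 85.8 to 152 in the other 6 libraries of its group. In whole lung, fewer cells of a type and less RNA per cell cannot be told apart.

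Between ZT16 and ZT4 the 33 genes split in both directions, and members of one pathway went both ways in anti-Ly6G and in control mice. Elovl1, which lengthens saturated very-long-chain fatty acids, and Soat1, which esterifies cholesterol for storage, fell at ZT16 in all 3 treatments, to 0.638 to 0.650 and 0.671 to 0.699 times their ZT4 levels. In anti-Ly6G mice 11 members rose and 4 fell, so 15 of 33 changed (45.5%), against 20.9% of all genes tested. The risers included 4 of 7 mevalonate genes and 4 of 8 fatty acid genes. In control mice 3 members rose and 5 fell, so 24.2% changed against 9.04% of all genes. In DT mice 1 rose and 5 fell, so 18.2% changed against 15.3% of all genes, a share near the background. Over all genes tested, 10.6% rose and 10.4% fell in anti-Ly6G mice, 4.65% and 4.38% in control mice, and 5.3% and 9.98% in DT mice. The median log2 change of the members was -0.11 in DT mice, 0.10 in anti-Ly6G mice and 0.043 in control mice, and that of all genes was -0.0090, -0.016 and -0.0018 in the same order. Of the members, 18 changed in at least 1 treatment, 2 in all 3, and 15 in none.

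**Figure D1:**
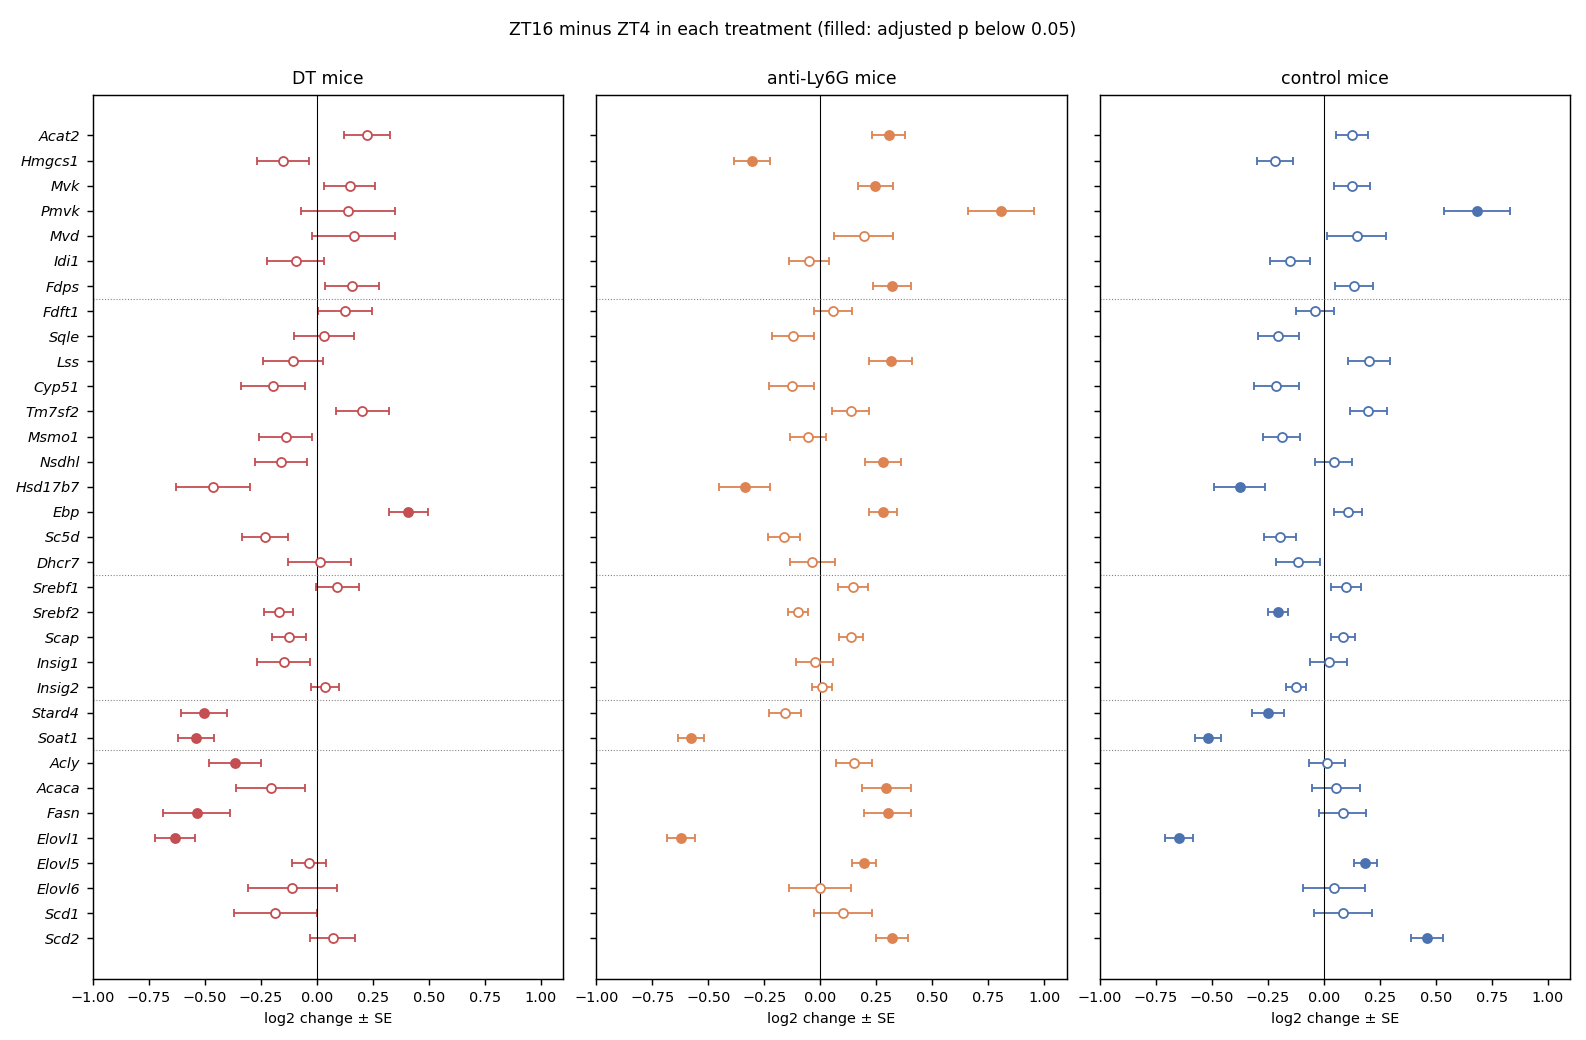
Log2 change from ZT4 to ZT16 (ZT16 minus ZT4) with its standard error for each of the 33 genes, in DT, anti-Ly6G and control mice from left to right; filled points had an adjusted p below 0.05, and dotted lines part the roles (mevalonate steps, squalene to cholesterol, SREBP control, cholesterol transport and esterification, fatty acids). Elovl1 and Soat1 lie near -0.6 and -0.5 in all 3 panels, while Fasn lies at 0.30 in anti-Ly6G mice and at -0.54 in DT mice.

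Among the 7 mevalonate genes, 4 rose and 1 fell in anti-Ly6G mice, 1 rose in control mice and none changed in DT mice. Pmvk (chr3:89454541-89469013, plus strand), phosphomevalonate kinase, had the largest increase of all members. Its values were 43.6 to 63.6 with a median of 54.8 in ZT16 anti-Ly6G lungs, against 23.5 to 41.9 with a median of 33.7 in ZT4 anti-Ly6G lungs, and the groups did not overlap. Its log2 change was 0.81 ± 0.15 (SE, adjusted p = 0.000179), or 1.75-fold. In control mice its values were 40.7 to 70.1 with a median of 58.3 in ZT16 control lungs, against 27.7 to 45.3 with a median of 32.8 in ZT4 control lungs, and the groups overlapped. The log2 change there was 0.68 ± 0.15 (SE, adjusted p = 0.00251). The DT lungs varied widely, at 68.12, 30 and 41.27 in ZT16 DT lungs, against 40.99, 35.66, 38.51 and 44.46 in ZT4 DT lungs. With 1 ZT16 lung above and 1 below all ZT4 lungs, the DT change of 0.14 ± 0.21 (SE, adjusted p = 0.7) did not pass.

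The other mevalonate genes that changed did so in anti-Ly6G mice alone by the test. Acat2 (chr17:12942890-12960747, minus strand), the cytosolic thiolase that joins 2 acetyl-CoA, had values of 35.8 to 45.2 with a median of 38.7 in ZT16 anti-Ly6G lungs, against 27.9 to 35.9 with a median of 31.3 in ZT4 anti-Ly6G lungs. The groups just overlapped, and the log2 change was 0.30 ± 0.072 (SE, adjusted p = 0.00251). Fdps (chr3:89093588-89101959, minus strand), farnesyl diphosphate synthase, had values of 53.7 to 74.1 with a median of 60.3 in ZT16 anti-Ly6G lungs, against 44.4 to 61.4 with a median of 50.6 in ZT4 anti-Ly6G lungs. The groups overlapped, and the log2 change was 0.32 ± 0.085 (SE, adjusted p = 0.00641). Fdps shares 26.7% of its exonic bases with Gm43738 on the same strand, so the value is uncertain. Hmgcs1 (chr13:119690379-119708260, plus strand), which makes HMG-CoA, went the other way, with values of 91.6 to 119 with a median of 100.3 in ZT16 anti-Ly6G lungs, against 110.1 to 155 with a median of 127 in ZT4 anti-Ly6G lungs. The groups overlapped, and the log2 change was -0.30 ± 0.081 (SE, adjusted p = 0.00675), with -0.48 in July 2017 and -0.17 in September 2017. Hmgcs1 shares 12.1% of its exonic bases with Gm48342 on the opposite strand, and whether counting used strand remains not given in the sources used here. Mvk, mevalonate kinase, had a log2 change of 0.25 ± 0.079 (SE, adjusted p = 0.0252). That call was lost without ZT4_antiLy6G Jul#1, ZT4_antiLy6G Jul#3 or ZT16_antiLy6G Jul#2, with log2 changes of 0.21, 0.23 and 0.22. In control mice the changes were 0.12 ± 0.072 for Acat2, 0.13 ± 0.085 for Fdps, -0.22 ± 0.081 for Hmgcs1 and 0.12 ± 0.079 for Mvk, all of the same sign and none past the threshold. Mvd and Idi1, which act between Pmvk and Fdps, passed in no treatment, with log2 changes between -0.15 and 0.19.

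Among the 11 genes from squalene to cholesterol, 3 rose and 1 fell in anti-Ly6G mice, 1 rose in DT mice and 1 fell in control mice. Ebp (chrX:8185329-8193512, minus strand), the sterol isomerase, rose in DT and anti-Ly6G mice. Its values were 48.45, 50.33 and 49.88 in ZT16 DT lungs, against 31.87, 35.06, 43.07 and 39.7 in ZT4 DT lungs, with no overlap. In anti-Ly6G mice they were 43.5 to 49.7 with a median of 46.8 in ZT16 anti-Ly6G lungs, against 33.1 to 42.9 with a median of 39.2 in ZT4 anti-Ly6G lungs, also with no overlap. The log2 change was 0.41 ± 0.089 (SE, adjusted p = 0.00226) in DT mice and 0.28 ± 0.062 (SE, adjusted p = 0.00137) in anti-Ly6G mice. In control mice it was 0.11 ± 0.062 (SE, adjusted p = 0.296), and the groups overlapped. Groups did not overlap for 26.2% of all genes tested in DT mice and 5.18% in anti-Ly6G mice, against 12 of 33 and 4 of 33 members.

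Lss and Nsdhl rose in anti-Ly6G mice. Lss (chr10:76531588-76557138, plus strand), which closes the sterol rings to lanosterol, had values of 32.9 to 43.9 with a median of 39.9 in ZT16 anti-Ly6G lungs, against 27.0 to 34.8 with a median of 32.7 in ZT4 anti-Ly6G lungs. Of the ZT16 libraries 1 lay within the ZT4 range, and the log2 change was 0.31 ± 0.095 (SE, adjusted p = 0.0169). Nsdhl (chrX:72918557-72958514, plus strand), a demethylation enzyme of the sterol chain, had values of 20.2 to 23.8 with a median of 21.7 in ZT16 anti-Ly6G lungs, against 14.8 to 20.5 with a median of 18.2 in ZT4 anti-Ly6G lungs. The groups overlapped narrowly, and the log2 change was 0.28 ± 0.081 (SE, adjusted p = 0.0124). In DT mice the change of Nsdhl was -0.16 ± 0.12, with values of 15.19, 17.58 and 20.34 in ZT16 DT lungs, against 20.45, 18.21, 17.52 and 23.1 in ZT4 DT lungs. The DT change minus the anti-Ly6G change was -0.44 ± 0.14 (SE, adjusted p = 0.0265). That difference did not pass without ZT4_DT Apr#1 (-0.42), ZT4_DT Apr#4 (-0.37), ZT16_DT Apr#1 (-0.34) or ZT16_DT Apr#2 (-0.44).

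Hsd17b7 (chr1:169949535-169969241, minus strand), a ketosteroid reductase, had a lower median at ZT16 in every treatment. Its values were 10.7 to 17.0 with a median of 12.9 in ZT16 control lungs, against 15.1 to 19.1 with a median of 16.7 in ZT4 control lungs. In anti-Ly6G mice they were 10.2 to 16.6 with a median of 13.9 in ZT16 anti-Ly6G lungs, against 13.6 to 22.1 with a median of 16.3 in ZT4 anti-Ly6G lungs. Both pairs of groups overlapped. The fitted log2 change was -0.34 ± 0.12 (SE, adjusted p = 0.0332) in anti-Ly6G mice and -0.38 ± 0.12 (SE, adjusted p = 0.0332) in control mice. In DT mice, with values of 10.75, 15.12 and 10.93 in ZT16 DT lungs, against 17.12, 19.73, 16.57 and 14.51 in ZT4 DT lungs, it was -0.46 ± 0.16 (SE, adjusted p = 0.0519). The DT change passed under 5 alternatives (a filter at 5, only the groups compared, no batch term, quantile normalisation and median centring), with adjusted p from 0.0405 to 0.0485. The anti-Ly6G change was -0.75 in July 2017 and -0.032 in September 2017. It did not pass without ZT4_antiLy6G Sep#1, Jul#1 or Jul#2 or without ZT16_antiLy6G Jul#1 or Jul#3, with log2 changes from -0.33 to -0.27. The anti-Ly6G call was also lost with only the groups compared (-0.34, adjusted p = 0.067) and after quantile normalisation (-0.30, adjusted p = 0.0617). The control change did not pass without ZT4_control Sep#1, Jul#1 or Jul#2 or without ZT16_control Sep#3, Jul#1 or Jul#3, with log2 changes from -0.37 to -0.33. The other 7 genes of these steps (Fdft1, Sqle, Cyp51, Tm7sf2, Msmo1, Sc5d and Dhcr7) passed in no treatment. Sqle, Cyp51, Msmo1 and Sc5d were below 0 and Tm7sf2 above 0 in control mice at unadjusted p between 0.00933 and 0.0414, and their adjusted p lay between 0.077 and 0.189. Fdft1 shares 18.3% of its exonic bases with Ctsb on the opposite strand and Tm7sf2 12.1% with Vps51 on its own.

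Of the 5 SREBP control genes only Srebf2, which encodes SREBP-2, changed, and only by the test in control mice. Srebf2 (chr15:82147181-82205379, plus strand) had values of 164 to 176 with a median of 173 in ZT16 control lungs, against 185 to 209.8 with a median of 196 in ZT4 control lungs, with no overlap. This was a log2 change of -0.20 ± 0.045 (SE, adjusted p = 0.00316), with -0.24 in July 2017 and -0.18 in September 2017. Groups did not overlap for 2.39% of all genes tested in control mice, against 4 of 33 members. In anti-Ly6G mice the values were 165 to 198 with a median of 184 in ZT16 anti-Ly6G lungs, against 178 to 209.6 with a median of 195 in ZT4 anti-Ly6G lungs, and the groups overlapped. The change there was -0.10 ± 0.045 (SE, adjusted p = 0.118), and that in DT mice, where the groups did not overlap, -0.17 ± 0.065 (SE, adjusted p = 0.0724). After quantile normalisation the anti-Ly6G change was -0.15 with an adjusted p of 0.0215. The anti-Ly6G change minus the control change of Srebf2 was 0.11 ± 0.064 (SE, adjusted p = 0.851), so the treatments were not shown to differ. Srebf1, Scap, Insig1 and Insig2 lay between -0.15 and 0.14 in all 3 treatments. The DT change of Scap minus its anti-Ly6G change was -0.26 ± 0.093 (SE, adjusted p = 0.0461). By limma it did not pass under 4 of 9 processing alternatives. These were no filter (adjusted p = 0.0588), only the groups compared (0.0564), no trend (0.0571) and quantile normalisation (-0.16, adjusted p = 0.243). Scap shares 13.2% of its exonic bases with a gene on the opposite strand. The Scap difference passed in 8 of the 21 fits that left out 1 library, those without ZT4_antiLy6G Sep#3, Jul#1 or Jul#3, ZT16_antiLy6G Sep#3, Sep#4 or Jul#3, ZT4_DT Apr#4 or ZT16_DT Apr#2, and over all 21 fits it ranged from -0.30 to -0.22.

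Both cholesterol transport and storage genes fell in DT and control mice. Soat1 (chr1:156424525-156474331, minus strand) had values of 113, 134.7 and 121.7 in ZT16 DT lungs, against 197.4, 177, 157.6 and 184.3 in ZT4 DT lungs. In anti-Ly6G mice its values were 111 to 135 with a median of 122 in ZT16 anti-Ly6G lungs, against 167 to 194 with a median of 181 in ZT4 anti-Ly6G lungs. In control mice they were 113 to 143 with a median of 121 in ZT16 control lungs, against 166 to 199.7 with a median of 175 in ZT4 control lungs. None of the 3 pairs of groups overlapped, and DT levels were not tested against those of other treatments. On the log2 scale the change was -0.54 ± 0.081 (SE, adjusted p = 4.05e-05) in DT mice, -0.58 ± 0.057 (SE, adjusted p = 4.49e-09) in anti-Ly6G mice and -0.52 ± 0.057 (SE, adjusted p = 8.18e-08) in control mice. It was -0.61 in July 2017 and -0.55 in September 2017 in anti-Ly6G mice, and -0.56 in July 2017 and -0.48 in September 2017 in control mice.

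Stard4, which carries cholesterol between membranes, fell in DT and control mice. Its values were 41.52, 39.76 and 39.51 in ZT16 DT lungs, against 61.35, 55.42, 56.5 and 56.03 in ZT4 DT lungs, with no overlap. In control mice they were 40.1 to 52.9 with a median of 44.1 in ZT16 control lungs, against 49.2 to 60.8 with a median of 50.7 in ZT4 control lungs, and the groups overlapped. The log2 change was -0.50 ± 0.1 (SE, adjusted p = 0.0013) in DT mice and -0.25 ± 0.071 (SE, adjusted p = 0.022) in control mice. In anti-Ly6G mice, with values of 40.9 to 55.7 with a median of 46.2 in ZT16 anti-Ly6G lungs, against 48.6 to 64.0 with a median of 51.3 in ZT4 anti-Ly6G lungs, it was -0.16 ± 0.071 (SE, adjusted p = 0.117). The control call was lost without ZT4_control Sep#1 (-0.22), ZT4_control Jul#1 (-0.22), ZT16_control Sep#3 (-0.22) or ZT16_control Sep#4 (-0.23). The DT change minus the anti-Ly6G change was -0.35 ± 0.12 (SE, adjusted p = 0.0464), and it did not pass in 15 of 21 fits that left out 1 library, among them each of the 7 fits without a DT library and those without ZT4_antiLy6G Sep#1, Sep#2, Sep#4, Jul#2 or Jul#3 or ZT16_antiLy6G Sep#1, Sep#2 or Jul#2, with a range from -0.39 to -0.31 over all 21. By limma it also did not pass with no filter (adjusted p = 0.0591), no trend (0.0579) or quantile normalisation (-0.28, adjusted p = 0.11). The DT change of Stard4 minus its control change was -0.25 ± 0.12 (SE, adjusted p = 0.169).

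Among the 8 fatty acid genes, 4 rose and 1 fell in anti-Ly6G mice, none rose and 3 fell in DT mice, and 2 rose and 1 fell in control mice. Elovl1 (chr4:118428093-118432953, plus strand) had values of 181.6, 195.6 and 190.6 in ZT16 DT lungs, against 301.4, 314.5, 256.2 and 304.5 in ZT4 DT lungs. In anti-Ly6G mice its values were 167 to 212 with a median of 191 in ZT16 anti-Ly6G lungs, against 269 to 334 with a median of 301 in ZT4 anti-Ly6G lungs. In control mice they were 178 to 219 with a median of 204 in ZT16 control lungs, against 289 to 350.5 with a median of 300.3 in ZT4 control lungs. Within each treatment all ZT16 lungs lay below all ZT4 lungs. The fitted log2 change was -0.63 ± 0.089 (SE, adjusted p = 1.57e-05) in DT mice, -0.62 ± 0.062 (SE, adjusted p = 5.67e-09) in anti-Ly6G mice and -0.65 ± 0.062 (SE, adjusted p = 3.96e-09) in control mice. It was -0.63 in July 2017 and -0.61 in September 2017 in anti-Ly6G mice, and -0.64 in July 2017 and -0.65 in September 2017 in control mice.

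**Figure D2:**
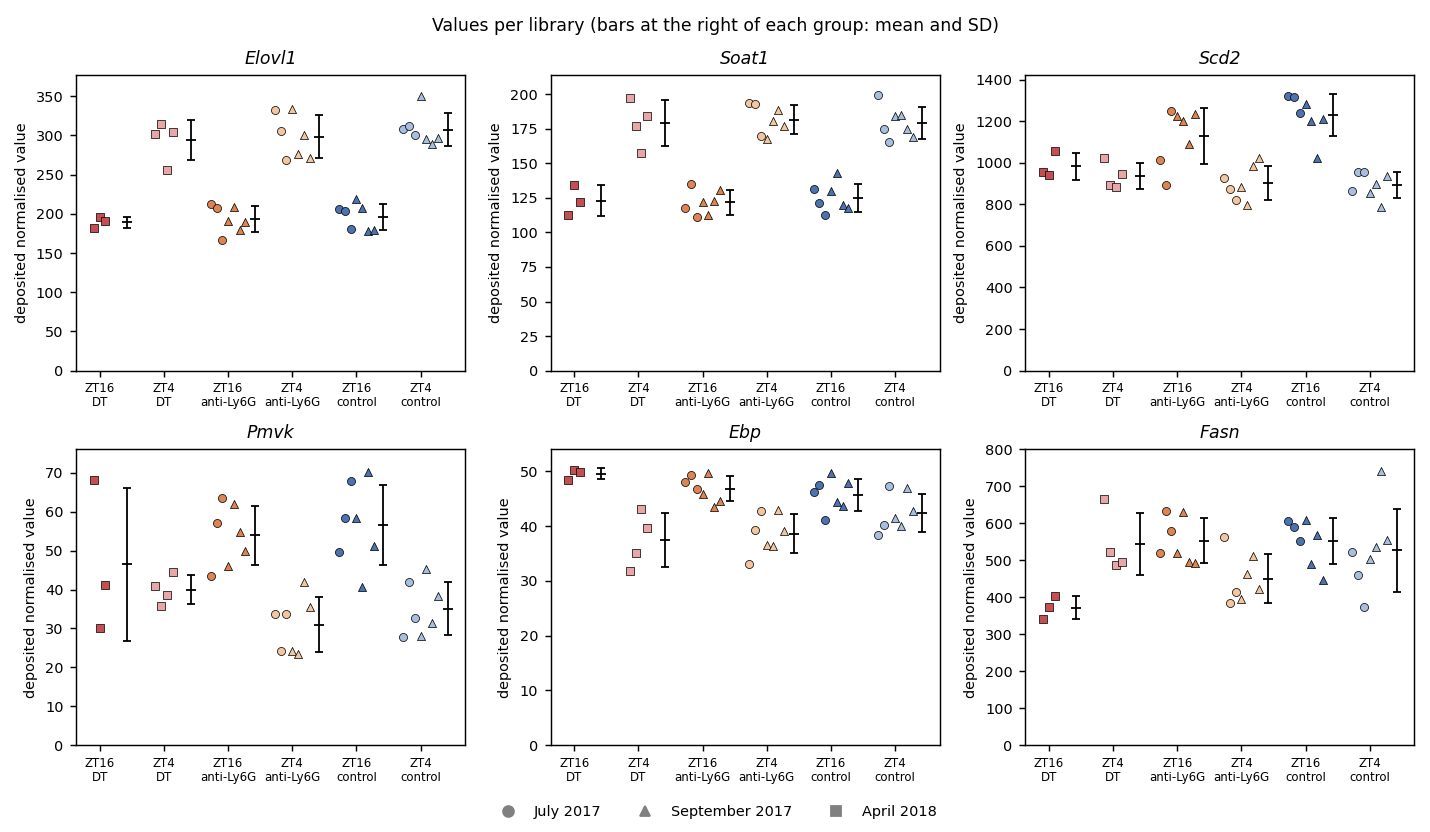
Deposited normalised value of 6 genes in each library, by group (DT, anti-Ly6G and control, ZT16 left of ZT4), with circles for July 2017, triangles for September 2017 and squares for April 2018, and the mean with its SD at the right of each group. Elovl1 and Soat1 separate the times in every treatment, Scd2 and Pmvk overlap between times in DT lungs, and the 3 ZT16 DT lungs have Fasn values of 340.8 to 402.6, below the 4 ZT4 DT lungs.

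Scd2 (chr19:44293674-44306864, plus strand), a stearoyl-CoA desaturase and a close paralog of Scd1 whose reads could be split between both, rose in the wild-type mice. Its values were 894 to 1247 with a median of 1199 in ZT16 anti-Ly6G lungs, against 797 to 1021 with a median of 883 in ZT4 anti-Ly6G lungs, and the groups overlapped. In control mice they were 1025 to 1321 with a median of 1240.5 in ZT16 control lungs, against 786 to 956 with a median of 896 in ZT4 control lungs, with no overlap. This was a log2 change of 0.32 ± 0.07 (SE, adjusted p = 0.0013) in anti-Ly6G mice and 0.46 ± 0.07 (SE, adjusted p = 3.4e-05) in control mice. DT lungs overlapped, at 953.5, 940.5 and 1058 in ZT16 DT lungs, against 1022, 893.8, 885.2 and 944.1 in ZT4 DT lungs, and their change was 0.072 ± 0.1 (SE, adjusted p = 0.677). The DT change minus the control change was -0.39 ± 0.12 (SE, adjusted p = 0.0327). It did not pass without ZT4_control Sep#3 (-0.36), ZT4_DT Apr#1 (-0.34), ZT16_DT Apr#1 (-0.37) or ZT16_DT Apr#2 (-0.36). After quantile normalisation that difference was -0.089 with an adjusted p of 0.599, the DT change was 0.24 with an adjusted p of 0.0466, and the anti-Ly6G change was 0.15 with an adjusted p of 0.0531. Elovl5 (chr9:77917364-77984519, plus strand), which lengthens polyunsaturated fatty acids, also rose in the wild-type mice. Its values were 268 to 299 with a median of 285 in ZT16 anti-Ly6G lungs, against 224 to 283 with a median of 247 in ZT4 anti-Ly6G lungs. In control mice they were 280.1 to 323 with a median of 287 in ZT16 control lungs, against 232 to 289 with a median of 270.5 in ZT4 control lungs, and both pairs overlapped. On the log2 scale the change was 0.20 ± 0.053 (SE, adjusted p = 0.00762) in anti-Ly6G mice and 0.18 ± 0.053 (SE, adjusted p = 0.0226) in control mice, against -0.035 ± 0.075 (SE, adjusted p = 0.8) in DT mice with values of 271.6, 241.8 and 259.5 in ZT16 DT lungs, against 270.6, 246.6, 259.1 and 279.1 in ZT4 DT lungs. The control call was lost without ZT4_control Sep#1 (0.17), Sep#3 (0.16) or Jul#1 (0.16) or ZT16_control Sep#3 (0.16) or Jul#2 (0.17).

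Fasn and Acly, the fatty acid synthase and the enzyme that supplies its acetyl-CoA, fell at ZT16 in DT mice. Fasn (chr11:120805846-120824547, minus strand) had values of 340.8, 373.5 and 402.6 in ZT16 DT lungs, against 666.8, 523.2, 487.1 and 495.7 in ZT4 DT lungs, with no overlap. In anti-Ly6G mice its values were 492 to 634 with a median of 520.2 in ZT16 anti-Ly6G lungs, against 384 to 563 with a median of 423 in ZT4 anti-Ly6G lungs, and the groups overlapped. In control mice they were 446 to 608 with a median of 568 in ZT16 control lungs, against 375 to 742 with a median of 522 in ZT4 control lungs, and the groups overlapped. The log2 change was -0.54 ± 0.15 (SE, adjusted p = 0.0148) in DT mice, 0.30 ± 0.11 (SE, adjusted p = 0.0383) in anti-Ly6G mice and 0.083 ± 0.11 (SE, adjusted p = 0.691) in control mice. The DT change minus the anti-Ly6G change was -0.84 ± 0.18 (SE, adjusted p = 0.00191), and it passed in each of the 21 fits that left out 1 library. The DT change minus the control change was -0.62 ± 0.18 (SE, adjusted p = 0.0227). Acly (chr11:100476353-100528000, minus strand) had values of 178.8, 211 and 191.4 in ZT16 DT lungs, against 305.5, 244.4, 225 and 229.2 in ZT4 DT lungs, with no overlap. Its log2 change was -0.37 ± 0.11 (SE, adjusted p = 0.0289) in DT mice, 0.15 ± 0.08 (SE, adjusted p = 0.188) in anti-Ly6G mice and 0.014 ± 0.08 (SE, adjusted p = 0.94) in control mice. The DT change of Acly minus its anti-Ly6G change was -0.52 ± 0.14 (SE, adjusted p = 0.00976), and minus its control change -0.38 ± 0.14 (SE, adjusted p = 0.0655).

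Some of these DT results rest on few lungs or on the scaling. Under quantile normalisation the DT change of Acly was -0.25 with an adjusted p of 0.149, its difference from anti-Ly6G mice -0.36 with 0.0879, and the difference of Fasn from control mice -0.53 with 0.0581, so that none of these 3 passed. ZT4_DT Apr#1 had the highest Fasn (666.8) and Acly (305.5) of its group, and ZT16_DT Apr#1 the lowest (340.8 and 178.8). Without ZT4_DT Apr#1 the DT change of Fasn was -0.43 with an adjusted p of 0.0815, and without ZT16_DT Apr#1 it was -0.47 with 0.0738. The DT change of Acly was -0.27, -0.31 and -0.36 without ZT4_DT Apr#1, ZT16_DT Apr#1 and ZT16_DT Apr#3, with adjusted p of 0.15, 0.129 and 0.0741. The difference of Fasn from control mice was -0.52 without ZT4_DT Apr#1 and -0.56 without ZT16_DT Apr#1, with adjusted p of 0.0802 and 0.0739. Without ZT4_DT Apr#1 or without ZT16_DT Apr#1, 3 members instead of 5 were lower in DT mice. Acaca, acetyl-CoA carboxylase, had a log2 change of 0.30 ± 0.11 (SE, adjusted p = 0.0478) in anti-Ly6G mice. Among fits that left out 1 anti-Ly6G library, the Acaca call held in those without ZT4_antiLy6G Sep#2 or Jul#1 or ZT16_antiLy6G Sep#3, and was lost in the other 11, with log2 changes from 0.26 to 0.31 and adjusted p up to 0.0915. The Fasn call in anti-Ly6G mice held without ZT4_antiLy6G Sep#3 or Jul#1 or ZT16_antiLy6G Sep#1, Sep#3, Sep#4 or Jul#1, and was lost in the other 8 fits, with log2 changes from 0.26 to 0.31 and adjusted p up to 0.089. Processing mattered for both calls as well. Under quantile normalisation the adjusted p was 0.0642 for Fasn and 0.0872 for Acaca, and with no trend 0.0522 and 0.0641. With no filter the Acaca call was lost too (adjusted p = 0.06). Scd1, the main desaturase of liver and fat, and Elovl6, which lengthens palmitate, passed in no treatment, with log2 changes between -0.18 and 0.10.

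Cell type markers also moved between times. Of 13 alveolar type 2 markers, none rose and 7 fell in DT mice, 3 rose and 5 fell in anti-Ly6G mice, and none rose and 4 fell in control mice. Their summed value was 29245 to 32756 in ZT16 DT lungs, against 29061 to 35311 in ZT4 DT lungs. It was 30812 to 39162 in ZT16 anti-Ly6G lungs, against 29243 to 34822 in ZT4 anti-Ly6G lungs, and 31585 to 35690.2 in ZT16 control lungs, against 31399 to 37494 in ZT4 control lungs. Of 8 genes listed as lipofibroblast markers, for a lipid-storing lung fibroblast, 4 fell in DT mice (Fgf10, Col13a1, Limch1 and Npnt). The sum of all 8 was 1449 to 1760.3 in ZT16 DT lungs, against 2132 to 2270.2 in ZT4 DT lungs, with no overlap. Among the others, Plin2 and Lpl did not pass and overlapped between times. Plin2 was 95.0 to 141 in ZT16 DT lungs, against 100 to 128 in ZT4 DT lungs. Lpl was 108 to 225 in ZT16 DT lungs, against 146 to 228 in ZT4 DT lungs. In anti-Ly6G mice 1 rose and 1 fell, with sums of 1623 to 2200.4 at ZT16, against 1860.0 to 2255 at ZT4. In control mice 1 fell, with sums of 1915 to 2199 at ZT16, against 1953 to 2323 at ZT4. Of 10 B cell markers, 1 fell in DT mice, 8 in anti-Ly6G mice and 3 in control mice. Of 10 alveolar macrophage markers, 1 rose in DT mice, 2 in anti-Ly6G mice and none in control mice. Of the 10 neutrophil markers, Mmp9 fell in control mice and no other passed over time. Of the 10 lung identity markers, the airway genes Scgb1a1 and Foxj1 rose and the endothelial gene Pecam1 fell in DT mice, 1 rose and 2 fell in anti-Ly6G mice, and 1 fell in control mice. Scgb1a1 was 32037 to 39576 in ZT16 DT lungs, against 21013 to 27739 in ZT4 DT lungs, with no overlap. No value of any gene was listed at 0, so the marker values do not show which markers were detected. The part of these cells in the changes of the 33 genes was not tested.

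Within the wild-type mice the time change could be taken in each batch alone. Across the 33 genes the July and September changes had a Pearson correlation of 0.85 in anti-Ly6G mice and 0.75 in control mice, against 0.55 and 0.36 across 16073 genes, with genes that are not independent replicates. The sign was shared by both batches for all 15 members that passed in anti-Ly6G mice and all 8 that passed in control mice. These members were called from both batches together, so a shared sign was nearly fixed in advance and is no replication. Over all 33, the sign was shared by 25 in anti-Ly6G mice and by 23 in control mice, against 67.4% and 61.9% of the 16073 genes. Of the 23 calls in wild-type mice 10 passed in July alone and 10 in September alone. In control mice the log2 change of Fasn was 0.38 in July and -0.14 in September, that of Acaca 0.39 and -0.20, and that of Elovl6 0.40 and -0.22. None of these 3 passed in control mice over both batches. The September values depend in part on ZT4_control Sep#3, the highest of its group for all 3. Without it, a choice made after seeing the data, they were -0.018 for Fasn, -0.048 for Acaca and 0.069 for Elovl6. All 3 were still below the July values.

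**Figure D3:**
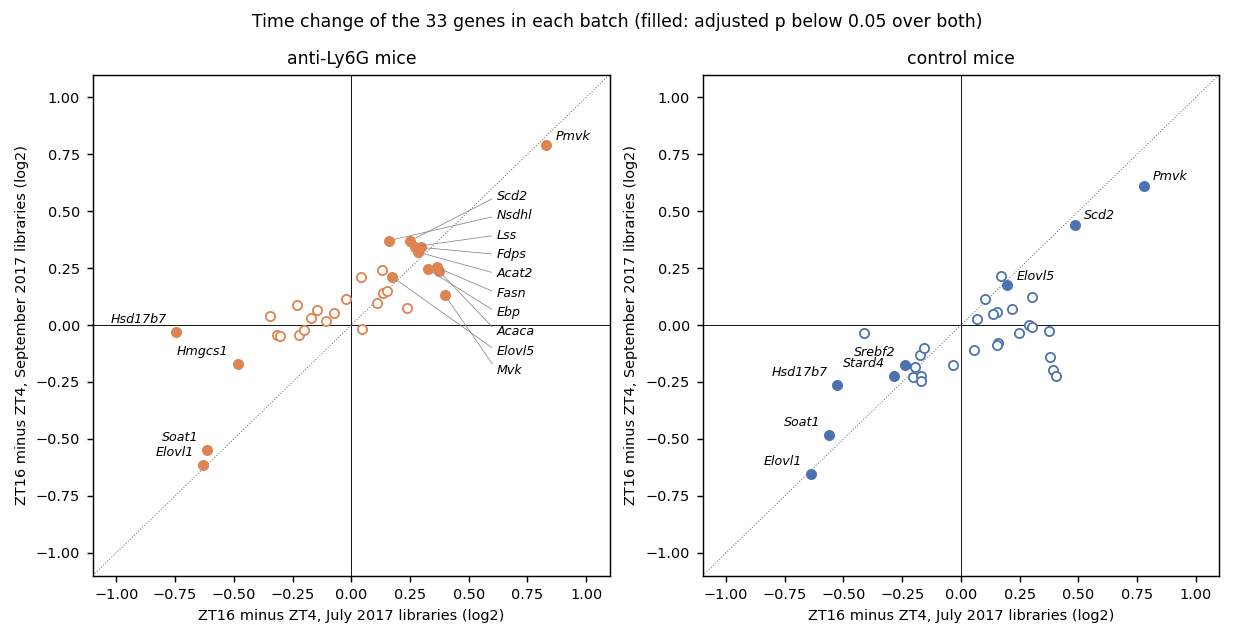
Log2 change (ZT16 minus ZT4) of the 33 genes in September 2017 libraries against that in July 2017 libraries, in anti-Ly6G mice (left) and control mice (right); filled points had an adjusted p below 0.05 over both batches, and the dotted line marks equal change. Named points are the filled ones and share their sign between batches, which a call over both batches nearly fixes in advance. In anti-Ly6G mice Pmvk lies at 0.83 and 0.79 and Elovl1 at -0.63 and -0.61 (July and September). Hsd17b7, with a September change of -0.032, lies farther left than Elovl1 on the July axis.

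Across the members, the time change in anti-Ly6G mice and that in control mice had a Pearson correlation of 0.94, with the same sign for 29 of 33, against 0.67 and 73.1% across all genes. No library is shared by these comparisons, but both use the same batch term. The time change in DT mice had a correlation of 0.64 with that in control mice and 0.61 with that in anti-Ly6G mice, against 0.065 and 0.040 across all genes. The sign was the same for 19 and 23 of the 33 members, against 47% and 46.5% of all genes. These are descriptions over 33 genes, in which Elovl1 and Soat1 have the largest falls.

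No member passed between anti-Ly6G and control lungs at either time, and the groups overlapped for all 33, where 0.0357% of all genes did not overlap at ZT16 and 0.107% at ZT4. At ZT16 no member and no gene of the table passed (0%), and the members' median log2 difference was 0.0037, with 0 members below an unadjusted p of 0.05, against 701 of all 16786 genes. At ZT4 again 0% of genes and no member passed. There the median was -0.088, 26 of 33 members were lower in anti-Ly6G lungs, and 4 had an unadjusted p below 0.05 (limma), against 1185 of all genes. These 4 were Fdps at -0.22 ± 0.085, Nsdhl at -0.20 ± 0.081, Ebp at -0.14 ± 0.062 and Insig2, which holds Scap back when sterols are high, at -0.091 ± 0.044. Their adjusted p lay between 0.663 and 0.704. The median at ZT4 was 0.0064 in July libraries and -0.14 in September libraries. The sign was the same in both for 15 of 33 members, against 55.5% of 16073 genes. The anti-Ly6G change over time minus the control change was above 0 for 27 members, with a median of 0.087, and none passed, nor did any gene (0%). Of the members, 2 had an unadjusted p below 0.05, Nsdhl at 0.24 ± 0.11 and Insig2 at 0.13 ± 0.063, against 1007 of all genes. The larger number of calls in anti-Ly6G mice than in control mice is therefore not shown to be a difference between them.

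**Figure D4:**
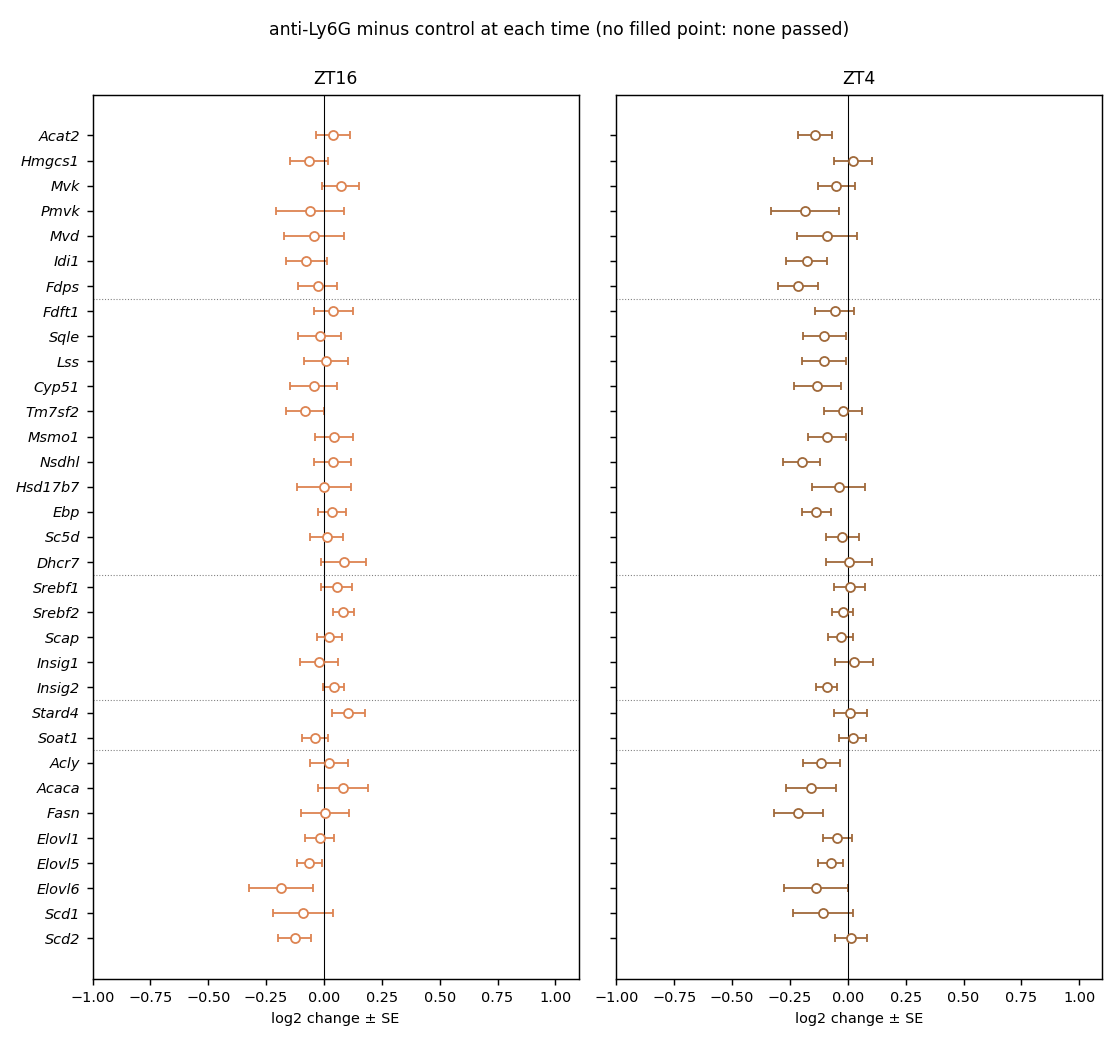
Log2 difference (anti-Ly6G minus control) with its standard error for each of the 33 genes at ZT16 (left) and ZT4 (right); open points did not pass the test, and none did. The points lie between -0.18 and 0.10 at ZT16 and between -0.22 and 0.026 at ZT4, where 26 of 33 are below 0.

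The time change in DT mice was lower than that in control mice for 2 members, Fasn and Scd2, and higher for none. Of all genes, 13.8% differed, with 4.93% higher and 8.86% lower. It was lower than that in anti-Ly6G mice for 5 members, Nsdhl, Scap, Stard4, Fasn and Acly, and higher for none, where 19.1% of all genes differed, with 7.44% higher and 11.6% lower. Both differences share the DT lungs, and their values for these genes are given above.

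In 1 control library adipocyte markers and lipogenic genes were high together. ZT4_control Sep#3, with an adipocyte sum of 535, had the highest Fasn (742.4), Acly (297.5), Acaca (135.9) and Elovl6 (17.22) of its group, whose other libraries had Fasn values of 375.2 to 555.7 and Elovl6 values of 6.5 to 8.56. Its Scd1 value of 1866 lay inside the group range of 1556 to 2126. Adipocyte sums were 61.3 to 124 in ZT16 DT lungs and 95.3 to 139 in ZT4 DT lungs, 79.3 to 158 and 69.2 to 154 in ZT16 and ZT4 anti-Ly6G lungs, and 92.9 to 242 in ZT16 control lungs. None of the 11 tested adipocyte markers passed in any comparison. Without this library the control time change of Fasn was 0.17, that of Acaca 0.16 and that of Elovl6 0.21, against 0.083, 0.054 and 0.045 with it, and none passed. The anti-Ly6G difference at ZT4 was then -0.13 for Fasn, against -0.21 with it, and 0.034 for Elovl6, against -0.14 with it. The DT change of Acly minus its control change was -0.43 without it and passed, with an adjusted p of 0.0345. With ZT4_control Sep#2 and Sep#3 both left out, a choice made after seeing the data, 2 members rose and 6 fell in control mice, where Elovl5 no longer passed (0.18, adjusted p = 0.0514 by limma) and Sc5d did (-0.25, adjusted p = 0.0386). No member passed between anti-Ly6G and control mice at ZT4, with a median of -0.073, and the DT change was lower than the control change for Fasn and Acly (-0.45, adjusted p = 0.0341) and no longer for Scd2 (-0.35, adjusted p = 0.0691). The part of fat cells in these values was not tested.

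**Figure D5:**
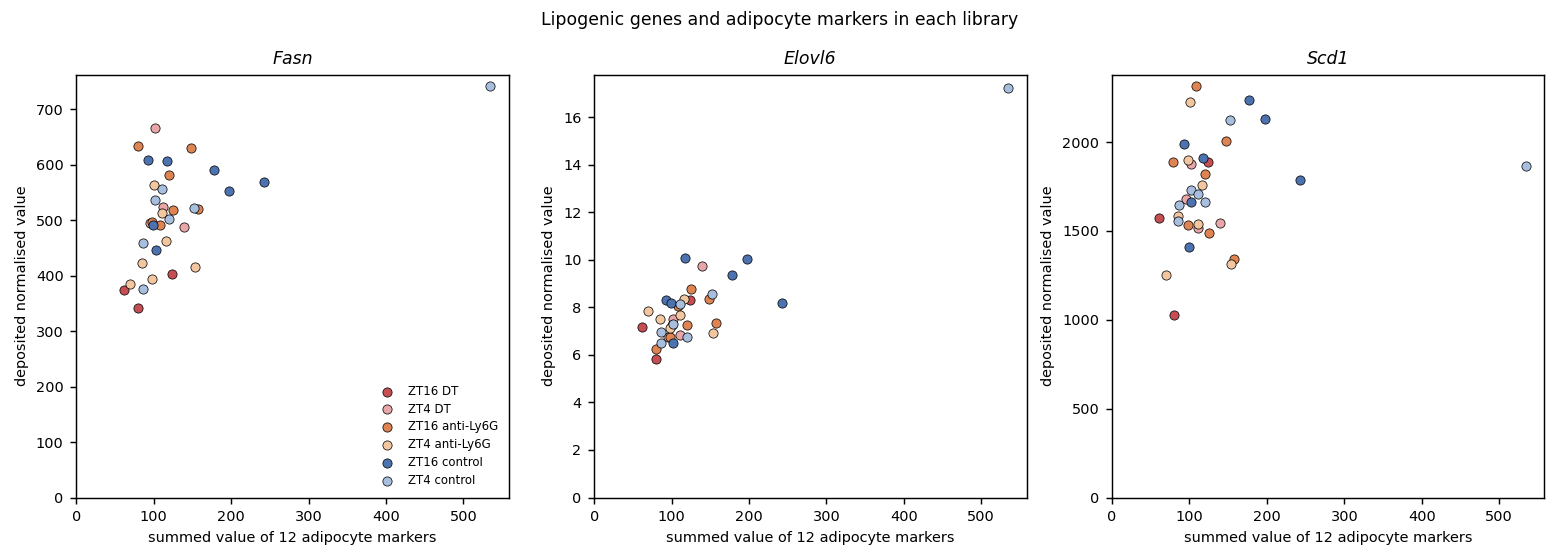
Deposited normalised values of Fasn, Elovl6 and Scd1 in each of the 35 libraries against the summed value of 12 adipocyte markers, coloured by group. The ZT4 control library at 535 has the highest Fasn and Elovl6 of all libraries, at 742.4 and 17.22, while its Scd1 value of 1866 lies among the others.

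A further 50 genes of the same pathways that are not members (uptake, export, activation, elongation and regulation) were listed for comparison, of which 49 were in the table and 46 were tested. In anti-Ly6G mice 14 rose and 2 fell at ZT16, so 34.8% changed, against 20.9% of all genes tested. Log2 changes with their SE stand in parentheses. The smallest p were those of Acsl1, which activates long-chain fatty acids (0.48 ± 0.083), Nr1h3, the sterol sensor LXR alpha (0.33 ± 0.066), Hacd2, an elongation dehydratase (0.34 ± 0.07), Me1, malic enzyme (-0.32 ± 0.066), Lpin1, a phosphatidate phosphatase (0.55 ± 0.12), and Abca1, the cholesterol exporter (0.43 ± 0.11). In control mice 5 rose and 5 fell, so 21.7% changed, against 9.04% of all genes tested. The smallest p there were those of Abca1 (0.58 ± 0.11), Hacd3 (-0.24 ± 0.051), Me1 (-0.29 ± 0.066), Hacd2 (0.30 ± 0.07), Mylip (0.42 ± 0.12) and Soat2, the other cholesterol esterifying enzyme. No change is given for Soat2, which passed the filter on low values mainly through groups where it is high, with values of 0.457 to 0.861 in ZT16 control lungs, against 0.702 to 3.32 in ZT4 control lungs. In DT mice 3 rose and 9 fell, so 26.1% changed, against 15.3% of all genes tested. The smallest p were those of Lpcat3, a phospholipid remodelling enzyme (-0.36 ± 0.087), Mbtps1, the first protease that cuts SREBPs (-0.27 ± 0.066), Prkaa1, a catalytic subunit of AMPK (-0.31 ± 0.082), Acsl3 (0.30 ± 0.085), Acss2 (0.31 ± 0.091) and Npc1, which lets cholesterol out of lysosomes (-0.28 ± 0.086). None passed between anti-Ly6G and control mice at either time.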

How the data were processed

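Lung RNA went through the Ovation Single Cell kit and an Illumina TruSeq preparation, as the labels' protocols say. The submitters' processing notes name CASAVA 1.8.2 and cutadapt, RSEM 1.2.20 beside kallisto 0.43.1, and the build GRCm38, with no role for any. The authors deposited normalised expression values per gene, treated here as a signal of unknown depth, without counting intervals: no value is 0 (lowest 0.00638), and reads could not be counted back. Their normalisation, and any batch adjustment, remain not given in the sources used here. Each gene's September against July term, divided by its standard error, had an SD over genes of 0.516, where a t value with 28 degrees of freedom has 1.04. Standard errors may therefore be too small, and DT levels were not tested against those of other treatments.

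Of the genes, 16786 reached a value of 1 in 3 or more libraries and 5425 did not and were dropped. The model, limma 3.58.1 (R 4.3.3) with a mean-variance trend, took log2(value + 0.5) from all 35 libraries and held 1 mean for every group plus a term for September against July. Adjusted p-values are Benjamini-Hochberg over all genes kept, two-sided, with a threshold of 0.05. "Rose", "fell" and "changed" mean that a gene passed. The pseudocount makes fitted changes of low genes too small. Contrasts were ZT16 minus ZT4 within a treatment, anti-Ly6G minus control within a time, and 3 differences between time changes.

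The 33 members, the comparison list and the marker lists were chosen with earlier results of these data known. Full values are given for the 16 members with the smallest p over the 5 simple contrasts, and others by range and counts; from the comparison list up to 6 called genes of smallest p are named per contrast. Gene coordinates are those of GENCODE vM21 on GRCm38. The table's columns name a group and batch but no single sample, so libraries carry their table order. The fit was tested on simulated data. Alternatives were 2 other pseudocounts, 2 other filters, no trend, no batch term, only the groups compared, quantile normalisation, median centring, each batch alone and each library left out.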

Additional observations from a re-analysis of the deposited data

Results flagged for a closer look

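Within a group of 4 or 7 libraries, 6 of 165 gene and group pairs and 3 of 35 marker sum and group pairs had a highest or lowest library whose gap to the next, over the group's range, passed Dixon's 95% critical value. Chance gives about 1 in 20 such groups, which 6 of 165 does not exceed. The share of 3 of 35 is larger but is not shown to exceed chance. The pairs are few, and the alveolar type 2 and lung identity lists share Sftpc and Sftpb. For Hmgcs1 the library was ZT4_DT Apr#4 at 132, with the other 3 at 117 to 118. For Lss it was ZT4_control Jul#3 at 23.2, with the others at 33.6 to 40.7. For Mvk it was ZT4_control Sep#1 at 23.1, with the others at 17.6 to 19.6. For Scd2 it was ZT16_control Sep#3 at 1020, with the others at 1200 to 1320. For Elovl1 it was ZT4_control Sep#1 at 350, with the others at 289 to 312, so that library lies farther from the ZT16 values. For Elovl6 it was ZT4_control Sep#3 at 17.2, with the others at 6.5 to 8.56, and the same library had an adipocyte marker sum of 535, with the others at 85.8 to 152. The alveolar type 2 sum of ZT16_control Sep#2 was 31600, with the others at 34100 to 35700. The lung identity sum of ZT4_antiLy6G Sep#3 was 56800, with the others at 50400 to 52300.

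The time change differed between treatments, by the test of the difference itself, for 6 members. Against control mice 2 of 33 (6.06%) differed, where 13.8% of all genes did, and against anti-Ly6G mice 5 of 33 (15.2%), where 19.1% did. The DT change minus the control change was -0.62 for Fasn and -0.39 for Scd2 (log2). Set against anti-Ly6G mice in the same way, it was -0.84 for Fasn, -0.52 for Acly, -0.44 for Nsdhl, -0.35 for Stard4 and -0.26 for Scap. The DT mice differ from the others in genotype and batch as well, and these cannot be told apart.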

How the results depend on the processing

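Of the 36 times that a member passed, 25 held under all 9 processing alternatives that kept both batches, 22 in every fit that left out 1 library, and 20 in both. No call turned its sign. In July libraries alone 3 members fell in control mice and 2 rose in anti-Ly6G mice, and the median interaction of anti-Ly6G with time was -0.018. In September libraries alone 1 rose and 2 fell in control mice, with a median of -0.089, and 5 rose and 2 fell in anti-Ly6G mice, each from fewer libraries; without ZT4_control Sep#3 as well, 1 rose and 2 fell in control mice. Under quantile normalisation 2 members rose in DT mice, and against control mice the DT change was higher for 2 members and lower for 0. Against anti-Ly6G mice it was lower for 2, and for 8 under median centring, 3 with no filter and 3 with no trend. With a filter at 5 it was higher than in control mice for 1. The cause was not tested. Of all genes that passed over time in DT mice, 34.7% were higher, against 51.8% under quantile normalisation and 29.4% under median centring. For the DT change minus the control change the share was 35.7%, against 52.6% and 27.8%, and minus the anti-Ly6G change 39%, against 50.5% and 29.6%.

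With 1 library left out, 3 to 6 members fell and 1 rose in DT mice. In anti-Ly6G mice 8 to 11 rose and 3 to 4 fell. In control mice 2 to 3 rose and 3 to 8 fell, with medians from -0.0070 to 0.068. There 3 fell without ZT4_control Sep#1, ZT4_control Jul#1 or ZT16_control Sep#3, and 8 without ZT16_control Sep#1. The DT change was lower than in control mice for 0 to 3 members (0 without ZT4_DT Apr#1) and higher for 0 to 1, and lower than in anti-Ly6G mice for 2 to 6. No paired analysis was possible because the table's columns carry no replicate number that matches the titles. Unknown depth sets no limit that could be given here.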
